A study of Homo sapiens with 8 samples.

Results

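The immediate early genes, the dual-specificity phosphatases, the Sprouty and SPRED proteins, the ETV factors and the EGFR ligands that report on RAS-MAPK signaling were followed in A549 cells exposed to indisulam and SPHINX31. The list held 45 genes, taken by symbol from a fixed set of AP-1, EGR, KLF, NR4A, IER, ZFP36, DUSP, SPRY, SPRED, ETV and ligand genes. They were matched through GENCODE on GRCh38. The deposited counts listed 60624 genes, of which 34831 had at least 1 count over the 8 libraries. Of the 45, 44 passed the filter on low counts, together with 18661 genes of the whole experiment, and EGR2 did not. A549 is a long-established line of human cells from an adenocarcinoma of the lung. Indisulam is a molecular glue that recruits the splicing factor RBM39 to the DCAF15 ubiquitin ligase for degradation, and SPHINX31 is an inhibitor of SRPK1, a kinase of serine/arginine-rich splicing factors. The 4 groups were untreated cells, cells with indisulam, cells with SPHINX31 and cells with the combination, all of the same unmodified line. According to the methods of the study, exposure lasted 24 h, at 0.5 μM for indisulam and 5 μM for SPHINX31. The deposited labels instead state 18 h and 2 μM indisulam for the indisulam and combination libraries. They give no dose or time for the untreated and SPHINX31 libraries. Dose and time therefore carry this uncertainty. Each group consisted of 2 technical replicates, and the p-values below therefore measure the spread between libraries and not between independent treatments.

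In the textbook pathway, ligands such as amphiregulin, epiregulin, TGF-α and HB-EGF are cleaved from the cell surface, bind EGFR and switch on RAS, RAF, MEK and ERK. ERK in turn activates transcription of immediate early genes within minutes, through SRF with its ETS partners and through CREB, and many of their mRNAs are short-lived because AU-rich elements recruit ZFP36 proteins. The pathway also restrains itself: DUSP phosphatases remove the phosphates from ERK, p38 or JNK, and Sprouty and SPRED proteins block the steps above RAF. Transcripts such as DUSP6, SPRY4, ETV4, ETV5, PHLDA1 and EPHA2 are commonly read as a record of ERK output. The comparisons asked whether each compound, alone or with the other, was accompanied by a different level of these mRNAs.

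The libraries held between 51727369 and 63186989 counts on genes, and 83.0% to 86.0% of the recorded reads fell on a gene. The 6 epithelial markers KRT7, KRT8, KRT18, KRT19, CDH1 and EPCAM had mean levels of 29.5 to 3817 CPM (counts scaled to the TMM-adjusted library size), whereas the leukocyte genes CD3E and MS4A1 were at 0 in every library and 3 of the 12 leukocyte, fibroblast and endothelial genes exceeded a mean of 1 CPM. RBM39 mRNA, encoding the protein that indisulam removes, was 2.32-fold higher with indisulam, and SRPK1 mRNA was 1.26-fold lower with indisulam and showed a log2 fold change of -0.04 (adjusted p = 0.683, SE 0.055) with SPHINX31. These are mRNA levels and do not report on degraded protein or inhibited kinase.

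The 45 genes differed widely in their level in untreated cells, given per length as TPM, from counts divided by exon length. IER3, an early gene that modulates ERK signaling and survival, was the most abundant at 369 ± 4.72 TPM (SD, n = 2). DUSP4 (168 TPM), AREG (165 TPM), DUSP1 (146 TPM) and ETV4 (140.4 TPM) followed. FOS and JUN, the founding AP-1 genes, were low at 6.27 and 6.08 TPM, whereas JUNB, JUND and FOSL1 reached 87.1, 63.2 and 51.3 TPM. At the lower end were EGR2 (0.103 TPM), EGR3 (0.209 TPM), FOSB (0.410 TPM) and DUSP2 (0.863 TPM). EGR3 passed the filter on low counts with 0.0589 to 0.564 CPM per library, and EGR2, just below it, had 0.0185 to 0.175 CPM and was not tested. In order of level, 32 of the 45 genes were above 10 TPM.

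**Figure D1:**
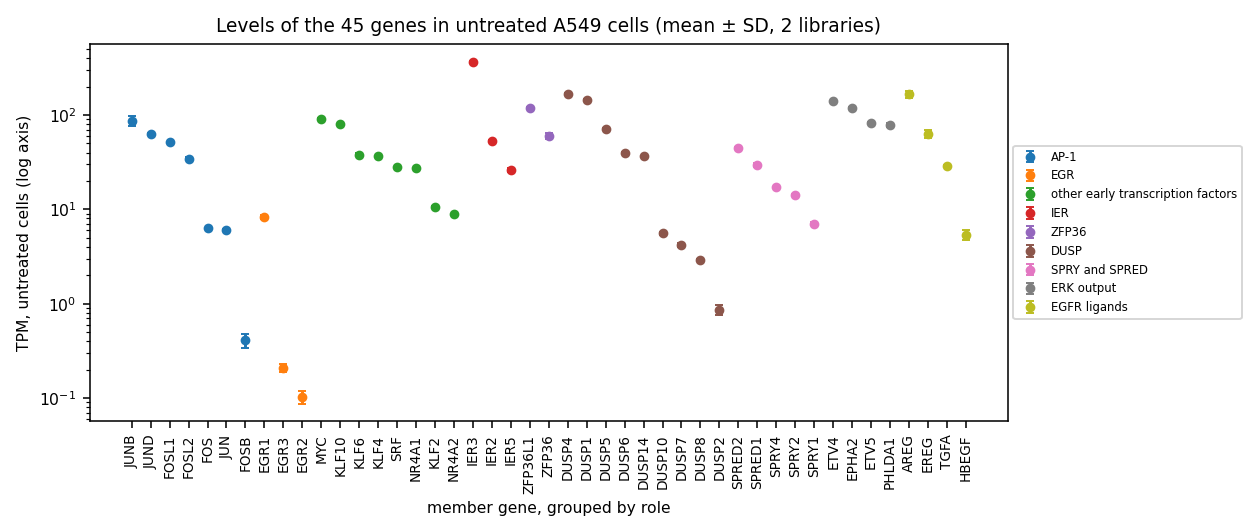
Level of each of the 45 genes in untreated A549 cells in TPM on a log axis, ordered by role and then by level, with points for the mean and bars for the SD of 2 libraries. IER3 is highest at 369 TPM and EGR2 lowest at 0.103 TPM.

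Promoter sequence was examined as a property that the choice of genes had not used. RefSeq windows of 300 bases (250 before and 50 after the start of transcription, GRCh38.p14) were matched by symbol for 35 of the 45 genes. A CArG box, the SRF site written CC, 6 bases of A or T and GG, was present in 3 of the 35 genes (8.57%), namely EGR1, SRF and EGR2, and in 1.60% of all 27305 genes with a window. The full CREB site TGACGTCA was present in JUND, ZFP36L1, DUSP1, DUSP8, EPHA2 and AREG, that is in 6 of 35 genes (17.1%), against 2.25% of all genes with a window and 3.62% of those that passed the filter. The AP-1 site TGANTCA was present in FOSL2 and SPRED2 (5.71%, against 9.37% of all genes with a window), and neither GCGTGGGCG nor CCGGAAGT was found in the 35 genes. Both strands were searched with exact matches, no 2 of these motifs contain each other, and a match describes letters and not binding. The 3 promoters with a CArG box and those of AREG and DUSP1 are shown as the 250 bases before the start, because the largest changes below included EGR1, AREG and DUSP1. Capitals mark the CArG boxes in EGR1 (chr5:138465229-138465478, plus strand), SRF (chr6:43171019-43171268, plus strand) and EGR2 (chr10:62816367-62816616, minus strand) and the TGACGTCA site in AREG (chr4:74444886-74445135, plus strand) and DUSP1 (chr5:172771196-172771445, minus strand), each read 5′ to 3′ along the gene.
EGR1 promoter: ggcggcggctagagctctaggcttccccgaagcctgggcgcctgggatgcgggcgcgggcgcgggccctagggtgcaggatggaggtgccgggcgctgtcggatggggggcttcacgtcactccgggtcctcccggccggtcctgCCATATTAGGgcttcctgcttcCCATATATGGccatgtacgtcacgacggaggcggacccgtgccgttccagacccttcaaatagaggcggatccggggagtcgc
SRF promoter: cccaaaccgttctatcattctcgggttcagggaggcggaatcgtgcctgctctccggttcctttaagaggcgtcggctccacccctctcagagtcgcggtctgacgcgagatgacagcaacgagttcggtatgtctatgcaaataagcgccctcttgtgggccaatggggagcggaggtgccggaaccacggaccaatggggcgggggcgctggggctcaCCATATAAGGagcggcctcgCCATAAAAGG
EGR2 promoter: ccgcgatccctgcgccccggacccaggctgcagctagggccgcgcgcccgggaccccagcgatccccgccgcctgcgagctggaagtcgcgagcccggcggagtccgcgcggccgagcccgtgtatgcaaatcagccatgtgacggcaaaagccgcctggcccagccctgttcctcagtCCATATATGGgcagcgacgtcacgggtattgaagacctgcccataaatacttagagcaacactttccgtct
AREG promoter: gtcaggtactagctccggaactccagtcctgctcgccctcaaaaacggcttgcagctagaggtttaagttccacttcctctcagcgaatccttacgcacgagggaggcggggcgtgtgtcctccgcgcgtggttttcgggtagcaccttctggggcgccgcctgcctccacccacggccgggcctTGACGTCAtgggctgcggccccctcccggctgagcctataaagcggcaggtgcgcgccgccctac
DUSP1 promoter: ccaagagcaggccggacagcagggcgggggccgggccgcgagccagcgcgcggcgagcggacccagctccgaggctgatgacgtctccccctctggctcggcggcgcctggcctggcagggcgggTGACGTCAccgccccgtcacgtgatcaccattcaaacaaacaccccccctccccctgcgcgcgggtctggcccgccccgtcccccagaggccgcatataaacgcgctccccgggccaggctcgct
In EGR1 the boxes began 105 and 83 bases before the start, in SRF 30 and 10 bases, and in EGR2 71 bases. The TGACGTCA site began 65 bases before the start of AREG and 125 bases before that of DUSP1.

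With SPHINX31, 16 of the 44 tested genes rose and 2 fell at an adjusted p under 0.05, while 8.61% of all tested genes were called in either direction, 4.94% higher and 3.67% lower. The 16 were 36.4% of the genes on the list. Their median log2 fold change over all 44 was 0.17, beside -0.01 over all tested genes, and 36 of 44 values were positive. When libraries were scaled by total counts alone, 18 genes of the list rose and 2 fell, and 72.3% in place of 57.3% of all genes called with SPHINX31 were higher. The background itself rested on single libraries: over all tested genes the 1606 calls with SPHINX31 fell to 482 without untreated replicate 1, 539 without untreated replicate 2 and 697 without SPHINX31 replicate 1, while the genes of the list called numbered 13 to 19 over the 8 fits that left out 1 library. With indisulam, 4 genes rose and 18 fell (40.9% of the list), while 43.7% of all tested genes were called, 20.1% higher and 23.5% lower. The median log2 fold change of the list was -0.11, beside -0.004 over all tested genes. DESeq2 gave 3 increases and 14 decreases, and some calls in both directions were lost when 1 library was left out. With the combination, 9 rose and 14 fell, while 50% of all tested genes were called, 23.8% higher and 26.3% lower. The median of the list was 0.03, beside 0.001 over all tested genes. The 14 decreases became 9 without untreated replicate 1 and 8 without combination replicate 1, and scaling by total counts alone gave 12 increases and 11 decreases. The share called was thus above the background mainly among increases with SPHINX31 and decreases with indisulam, and it was close to the background with the combination. These 3 comparisons share the untreated libraries, so that their values are set side by side and not counted as separate evidence. In bulk RNA, a change in every cell and a change in the share of cells that express a gene cannot be told apart.

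**Figure D2:**
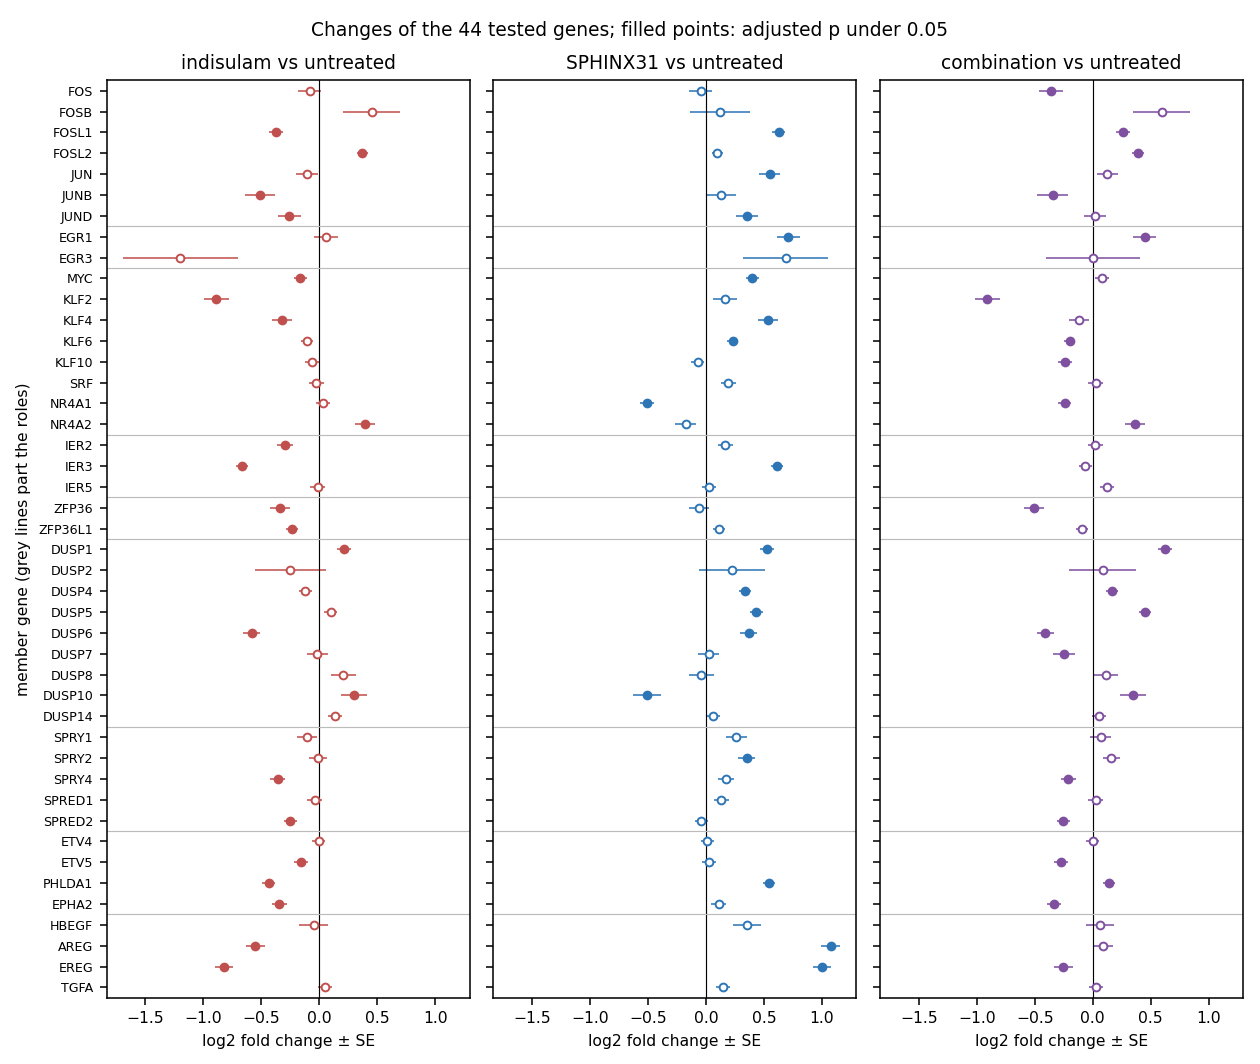
Log2 fold change with its SE for each of the 44 tested genes, in 3 panels for indisulam, SPHINX31 and the combination, each against untreated cells, with filled points at an adjusted p under 0.05. Points lie mostly left of 0 with indisulam (33 of 44) and right of 0 with SPHINX31 (36 of 44).

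**Figure D3:**
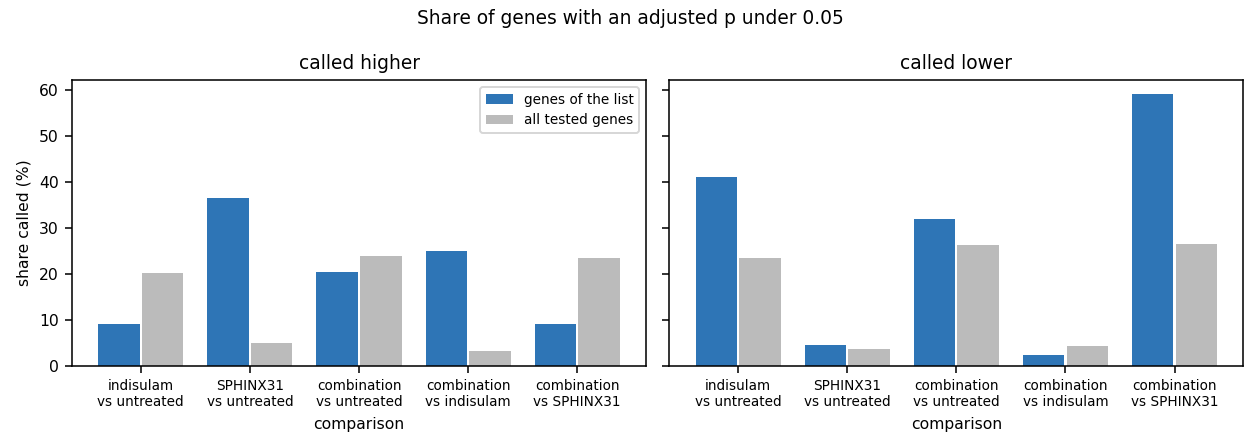
Share of genes called higher (left) and lower (right) in percent, for the 44 tested genes of the list in blue and all 18661 tested genes in grey, in 5 comparisons. The 2 sets are furthest apart among increases with SPHINX31 (36.4% against 4.94%) and decreases of the combination against SPHINX31 (59.1% against 26.5%).

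Among the EGFR ligands, AREG and EREG moved most and in opposite directions with the 2 compounds. AREG stood at 73.3 and 78.9 CPM in the untreated libraries, 51.2 and 52.6 CPM with indisulam, 163 and 158 CPM with SPHINX31 and 72.5 and 89.9 CPM with the combination. AREG, encoding amphiregulin, was thus about doubled with SPHINX31, lowered with indisulam and between these levels with both, and within each of these groups the 2 libraries lay close except with the combination. Its log2 fold change was 1.08 (adjusted p = 7.13e-06, SE 0.080) with SPHINX31, a 2.11-fold increase, and -0.55 (adjusted p = 1.13e-04, SE 0.081) with indisulam, and against untreated cells the combination gave 0.09 (adjusted p = 0.355, SE 0.080), with a 95% interval of -0.08 to 0.27. Without combination replicate 1, AREG was called higher with the combination (0.25, adjusted p = 0.0110). EREG was counted at 95.9 and 106 CPM without treatment, at 57.2 and 56.9 CPM with indisulam alone, at 196 and 208 CPM with SPHINX31 alone and at 76.4 and 93.1 CPM with both compounds. EREG, encoding epiregulin, followed the same order, highest with SPHINX31 and lowest with indisulam. It rose 2.00-fold with SPHINX31 (log2 1.00, adjusted p = 8.79e-06, SE 0.079), fell 1.77-fold with indisulam (log2 -0.82, adjusted p = 3.32e-06, SE 0.081) and was lower with the combination by 0.25 (adjusted p = 0.0172, SE 0.079) on the log2 scale, a call that was lost without untreated replicate 2 (-0.18) or without combination replicate 1 (-0.11). The other ligands did not pass the test. HBEGF, which encodes HB-EGF, had log2 fold changes of 0.35 (adjusted p = 0.0916, SE 0.12) with SPHINX31 and -0.05 (adjusted p = 0.779, SE 0.13) with indisulam. TGFA, which encodes TGF-α, lay between 39.3 and 44.6 CPM across the 8 libraries, with 0.15 (adjusted p = 0.140, SE 0.058) with SPHINX31.

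**Figure D4:**
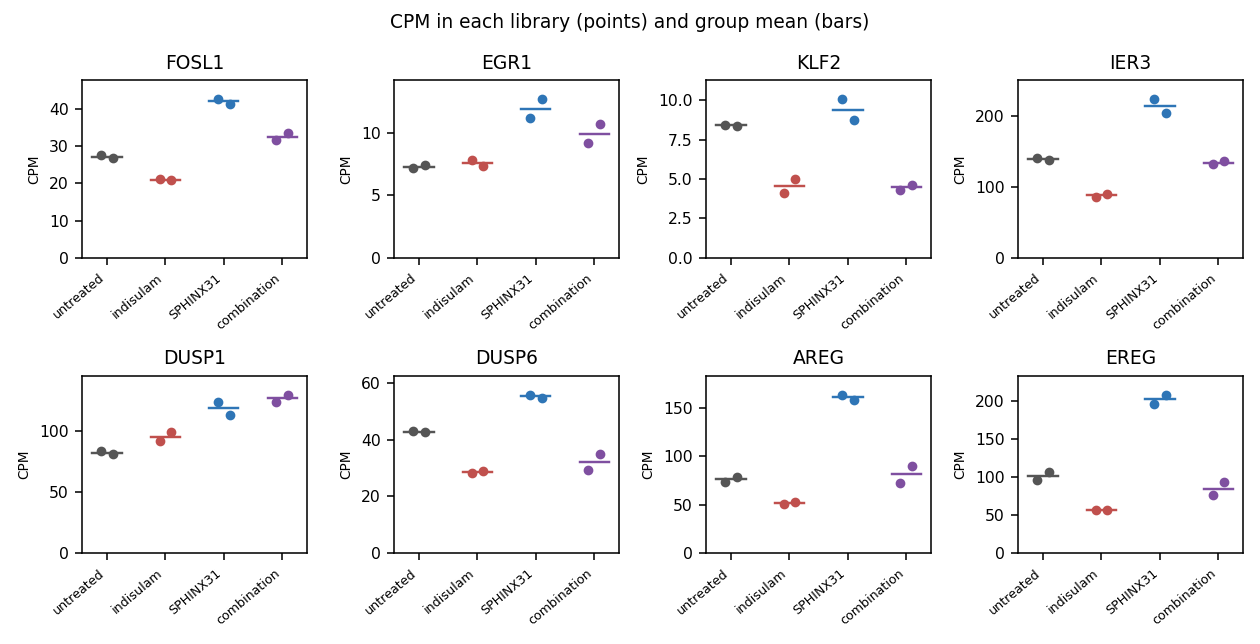
CPM of 8 genes in each of the 8 libraries (points) with the mean of each group (short bars), on axes that start at 0. For AREG and EREG the SPHINX31 libraries are highest and the indisulam libraries lowest, whereas KLF2 is low in both groups with indisulam.

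Of the 7 AP-1 genes, 3 rose (42.9%, against 4.94% of all tested genes) and none fell with SPHINX31. With indisulam, 1 rose and 3 fell (14.3% and 42.9%, against 20.1% and 23.5% of all tested genes). FOSL1, which encodes the FOS relative FRA-1 and is a known ERK target, had the largest change of these with SPHINX31. The 2 libraries per group gave 27.6 and 26.7 CPM for FOSL1 in untreated cells, 21.1 and 20.9 CPM with indisulam, 42.5 and 41.4 CPM with SPHINX31 and 31.6 and 33.5 CPM with the combination. The 4 groups did not overlap, with SPHINX31 highest, the combination above untreated cells and indisulam lowest. FOSL1 rose 1.54-fold with SPHINX31 (log2 0.63, adjusted p = 4.38e-05, SE 0.059), fell 1.29-fold with indisulam (log2 -0.37, adjusted p = 2.77e-04, SE 0.061) and was 1.20-fold higher with the combination. JUN and JUND, the partners of FOS proteins in AP-1 dimers, rose by 0.55 and 0.35 on the log2 scale with SPHINX31, the call for JUND being lost under 6 of 17 other settings. With indisulam JUND had -0.26, and -0.41 to -0.11 when 1 library was left out. This call was kept in 3 of the 9 remaining settings. JUNB fell by 0.51 with indisulam and by 0.35 with the combination, its 2 untreated libraries standing at 49.2 and 40.5 CPM. The JUNB call with indisulam was lost without untreated replicate 1 (-0.36), without indisulam replicate 1 (-0.30) and in DESeq2. The JUNB call with the combination was lost without untreated replicate 1 (-0.20), combination replicate 1 (-0.30) or combination replicate 2 (-0.39). It was also lost in DESeq2, with total counts alone and with a replicate block. FOSL2 went the other way and rose by 0.37 with indisulam and 0.39 with the combination, with 69.4 and 69.5 CPM in untreated cells and 88.2 and 91.8 CPM with indisulam. FOS itself had 4.33 to 5.70 CPM over the 8 libraries and was called lower with the combination, against untreated cells (-0.36) and against SPHINX31 (-0.32). The first call was lost without untreated replicate 1 (-0.34), and the second without SPHINX31 replicate 2 (-0.24), combination replicate 1 (-0.32) or combination replicate 2 (-0.30) and in DESeq2. FOSB shares its locus with ERCC1 on the opposite strand, which was counted at 71.2 CPM, and the strand setting of the counts is not given in the sources used here, so that its 0.55 to 1.10 CPM are uncertain. JUNB likewise overlaps HOOK2 on the opposite strand, which was counted at 13.4 CPM.

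EGR1, a zinc finger factor that is among the fastest ERK-induced genes and carries the CArG boxes shown above, rose with SPHINX31. EGR1 was counted at 7.17 and 7.40 CPM without treatment, at 7.82 and 7.32 CPM with indisulam alone, at 11.2 and 12.7 CPM with SPHINX31 alone and at 9.17 and 10.7 CPM with both compounds. The SPHINX31 libraries were highest, those with both compounds came next, and untreated and indisulam libraries overlapped. The increase was 1.64-fold with SPHINX31 (log2 0.71, adjusted p = 6.83e-04, SE 0.10) and 1.36-fold with the combination (log2 0.45, adjusted p = 0.00209, SE 0.10), whereas indisulam alone gave 0.06 (adjusted p = 0.677, SE 0.10). SRF, with its own CArG boxes, differed on the log2 scale by 0.19 (adjusted p = 0.0797, SE 0.064) with SPHINX31 and was therefore not called. EGR3, at no more than 0.564 CPM in any library, showed 0.69 (adjusted p = 0.281, SE 0.37) with SPHINX31 and -1.20 (adjusted p = 0.0652, SE 0.49) with indisulam.

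The other 8 early transcription factors were divided. With SPHINX31, MYC, KLF4 and KLF6 rose and NR4A1 fell. MYC, the growth-promoting factor, stood at 156 and 155 CPM in untreated cells and 211 and 199.9 CPM with SPHINX31, a log2 fold change of 0.40 (adjusted p = 8.03e-04, SE 0.056). KLF4 rose by 0.53 and KLF6 by 0.23 on the log2 scale, the latter call being lost without either untreated library. With the combination, KLF6 was instead lower than in untreated cells (-0.20, adjusted p = 0.00464, and -0.22 to -0.17 when 1 library was left out). It was also lower with the combination than with SPHINX31 alone (-0.43, and -0.45 to -0.40 when 1 library was left out). Against indisulam alone, the combination gave -0.09 for KLF6 (adjusted p = 0.304). With indisulam, KLF4 and MYC were lower, with -0.32 and -0.16. When 1 library was left out, these values were -0.37 to -0.26 and -0.22 to -0.10. The call for MYC with indisulam was lost without untreated replicate 1 (-0.16), untreated replicate 2 (-0.17) or indisulam replicate 1 (-0.10). It was also lost in DESeq2 and with a replicate block with GC correction. The call for KLF4 with indisulam was lost without indisulam replicate 1 (-0.26). NR4A1, an orphan nuclear receptor, was one of only 2 genes on the list that fell with SPHINX31, and is named with DUSP10 after its values were seen. NR4A1 stood at 57.3 and 53.9 CPM in the untreated libraries, 54.9 and 58.8 CPM with indisulam, 38.3 and 39.7 CPM with SPHINX31 and 47.8 and 46.3 CPM with the combination. The SPHINX31 libraries were the lowest of all, and the log2 fold change was -0.51 (adjusted p = 1.91e-04, SE 0.059). KLF2, a Krüppel-like factor, had the largest decrease on the list with indisulam among genes above 1 CPM. The 2 libraries per group gave 8.43 and 8.40 CPM for KLF2 in untreated cells, 4.13 and 5.004 CPM with indisulam, 10.1 and 8.77 CPM with SPHINX31 and 4.34 and 4.63 CPM with the combination. Both groups with indisulam were about equally low, with a fall of 0.89 for indisulam and 0.91 for the combination on the log2 scale (adjusted p = 2.85e-05 and 1.59e-05), and SPHINX31 alone gave 0.16 (adjusted p = 0.366, SE 0.10), with a 95% interval of -0.06 to 0.38. NR4A2 rose by 0.40 with indisulam and by 0.37 with the combination, and KLF10 fell by 0.24 with the combination, a call lost without combination replicate 1 (-0.16).

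IER3 showed the same opposite movement as the ligands. IER3 was counted at 141 and 138 CPM without treatment, at 86.0 and 90.4 CPM with indisulam alone, at 223 and 204 CPM with SPHINX31 alone and at 132 and 136 CPM with both compounds. It rose 1.53-fold with SPHINX31 (log2 0.61, adjusted p = 2.87e-05, SE 0.055) and fell 1.59-fold with indisulam (log2 -0.67, adjusted p = 7.95e-07, SE 0.055), and the combination differed from untreated cells by -0.06 (adjusted p = 0.363, SE 0.055), with a 95% interval of -0.18 to 0.05. IER2, a nuclear early response protein, fell by 0.30 with indisulam and was 0.17 on the log2 scale with SPHINX31 (adjusted p = 0.142). IER5 passed the test in none of the comparisons and stayed between 29.1 and 33.8 CPM. Both genes of the ZFP36 family, whose proteins bind AU-rich elements and promote decay of the bound mRNA, fell with indisulam, by 0.34 for ZFP36 and 0.24 for ZFP36L1. The call for ZFP36 was lost without untreated replicate 1 (-0.23). With the combination, ZFP36 fell by 0.51 (-0.61 to -0.40 when 1 library was left out), while ZFP36L1 had -0.09 and was not called. With SPHINX31 the 2 genes had log2 fold changes of -0.06 and 0.11 and did not pass the test.

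Among the 9 DUSP genes, DUSP1, DUSP4, DUSP5 and DUSP6 rose with SPHINX31 and DUSP10 fell. DUSP1, a nuclear phosphatase of p38, JNK and ERK whose promoter holds the TGACGTCA site shown above, was higher in all 3 treated groups. DUSP1 stood at 83.9 and 81.1 CPM in the untreated libraries, 91.7 and 99.5 CPM with indisulam, 124 and 114 CPM with SPHINX31 and 124 and 130.0 CPM with the combination. Its log2 fold change was 0.52 (adjusted p = 1.84e-04, SE 0.060) with SPHINX31, 0.62 (adjusted p = 1.85e-06, SE 0.060) with the combination and 0.21 (adjusted p = 0.0112, SE 0.060) with indisulam, and the last call was lost without untreated replicate 2 (0.19) or indisulam replicate 2 (0.16). DUSP6, the cytoplasmic phosphatase that is specific for ERK, moved as the ligands did. The 2 libraries per group gave 43.0 and 42.5 CPM for DUSP6 in untreated cells, 28.4 and 28.8 CPM with indisulam, 55.8 and 54.6 CPM with SPHINX31 and 29.4 and 35.0 CPM with the combination. It fell 1.50-fold with indisulam (log2 -0.58, adjusted p = 2.72e-05, SE 0.072) and rose 1.29-fold with SPHINX31 (log2 0.37, adjusted p = 0.00588, SE 0.070), a call that was lost without untreated replicate 1 (0.38) or untreated replicate 2 (0.36). The nuclear ERK phosphatases DUSP4 and DUSP5 rose with SPHINX31 by 0.34 and 0.44 and with the combination by 0.16 and 0.45, while with indisulam alone neither was called (-0.12 and 0.10). The call for DUSP4 with the combination was lost without untreated replicate 1 (0.17), untreated replicate 2 (0.16) or combination replicate 2 (0.12). DUSP5 ranged from 50.04 to 54.5 CPM in the libraries without SPHINX31 and from 66.7 to 70.7 CPM in those with it, so that these sets did not overlap. DUSP10, a phosphatase of p38 and JNK, was the exception. DUSP10 was counted at 4.66 and 4.26 CPM without treatment, at 5.07 and 5.97 CPM with indisulam alone, at 2.97 and 3.28 CPM with SPHINX31 alone and at 5.70 and 5.64 CPM with both compounds. It fell by 0.51 with SPHINX31 and rose by 0.30 with indisulam on the log2 scale, and these calls held in 5 and 3 of 8 fits that left out 1 library, over which the values were -0.59 to -0.44 with SPHINX31 and 0.19 to 0.42 with indisulam. DUSP2, DUSP7, DUSP8 and DUSP14 were not called with either compound alone, with log2 fold changes from -0.25 to 0.23. Transcripts of the DUSP5 and DUSP8 pseudogenes DUSP5P1 and DUSP8P5 were counted at 0.72 and 0.87 CPM, and reads that could belong to either copy were not separated here.

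Of the 5 Sprouty and SPRED genes, inhibitors of RAS and RAF activation, 1 rose with SPHINX31 and 2 fell with indisulam. These were 20% and 40%, against 4.94% and 23.5% of all tested genes. SPRY2 rose by 0.35 with SPHINX31, from 12.8 and 13.0 CPM to 15.8 and 17.2 CPM, a call that held in 5 of 8 fits without 1 library (0.29 to 0.41). SPRY4 and SPRED2 fell with indisulam, by 0.36 and 0.25, and with the combination, by 0.21 and 0.25. With the combination, the call for SPRY4 was lost without untreated replicate 1 (-0.17), combination replicate 1 (-0.21) or combination replicate 2 (-0.20) and with total counts alone, and that for SPRED2 without combination replicate 1 (-0.18). SPRY1 and SPRED1 were not called in any comparison, with SPHINX31 values of 0.26 (adjusted p = 0.0802, SE 0.087) and 0.13 (adjusted p = 0.233, SE 0.064). The 4 remaining transcripts of ERK output were also not uniform. PHLDA1, a pleckstrin homology domain protein induced by ERK, was just under the size limit set for full description. The 2 libraries per group gave 127 and 133 CPM for PHLDA1 in untreated cells, 96.6 and 96.2 CPM with indisulam, 191 and 189 CPM with SPHINX31 and 137 and 151 CPM with the combination. It rose by 0.54 with SPHINX31 and fell by 0.44 with indisulam (adjusted p = 7.95e-05 and 3.22e-05). ETV4, an ETS factor downstream of ERK, lay at 133 to 146 CPM in all 8 libraries, and the 95% interval of its log2 fold change was -0.11 to 0.13 with SPHINX31 and -0.13 to 0.12 with indisulam. ETV5, its close relative, fell by 0.16 with indisulam and by 0.28 with the combination. Its call with indisulam was lost without any 1 of the untreated or indisulam libraries (-0.16 to -0.15). It was also lost with RLE size factors, with total counts alone, in DESeq2 and with a replicate block. The receptor gene EPHA2 fell by 0.34 with indisulam and by 0.34 with the combination. With SPHINX31, ETV5 and EPHA2 had 0.03 and 0.11 and were not called. ETV4 overlaps DHX8 on the opposite strand and ETV5 overlaps DGKG on the same strand, with 100.4 and 13.3 CPM counted on the neighbors, so that shared reads could not be separated here.

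The effect of SPHINX31 was measured a second time in the presence of indisulam, by comparing the combination with indisulam alone, in libraries that the comparison of SPHINX31 with untreated cells did not use. In it 11 genes of the list rose and 1 fell, while 7.5% of all tested genes were called, 3.17% higher and 4.32% lower. Of the 16 genes that rose with SPHINX31 alone, 10 rose again and 15 had a positive value, and of the 2 that fell, NR4A1 fell again (-0.27, adjusted p = 0.0131, SE 0.059, lost in 3 of 8 fits without 1 library, over which it was -0.32 to -0.23) while DUSP10 had 0.04 (adjusted p = 0.865, SE 0.11). Across all tested genes, 320 of the 921 that rose with SPHINX31 alone rose again and 839 had a positive value. The share with a positive value on the list was thus near that of all tested genes. When libraries were scaled by total counts alone, 65.4% in place of 42.3% of all genes called in this comparison were higher. The 10 genes were FOSL1 (0.63), AREG (0.65), IER3 (0.60), PHLDA1 (0.58), EREG (0.57), DUSP1 (0.41), EGR1 (0.39), DUSP5 (0.35), DUSP4 (0.28) and MYC (0.24), and IER2 (0.32) rose in addition. The call for EGR1 was lost without indisulam replicate 1 (0.44), indisulam replicate 2 (0.34) or combination replicate 2 (0.27), and without combination replicate 2 the number of genes called fell from 12 to 7. The calls for MYC and DUSP4 were lost without indisulam replicate 1 (0.19 and 0.23) or combination replicate 2 (0.19 and 0.24), and that for IER2 without indisulam replicate 1 (0.23), combination replicate 1 (0.33) or combination replicate 2 (0.32). Over all tested genes, the 1399 calls fell to 440 without combination replicate 2, 609 without combination replicate 1 and 696 without indisulam replicate 1. As a description, the log2 fold changes of the 44 genes in the 2 measurements had a Pearson correlation of 0.79 and a Spearman correlation of 0.87, beside 0.36 and 0.40 over all tested genes. The genes share their libraries and are not independent points.

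**Figure D5:**
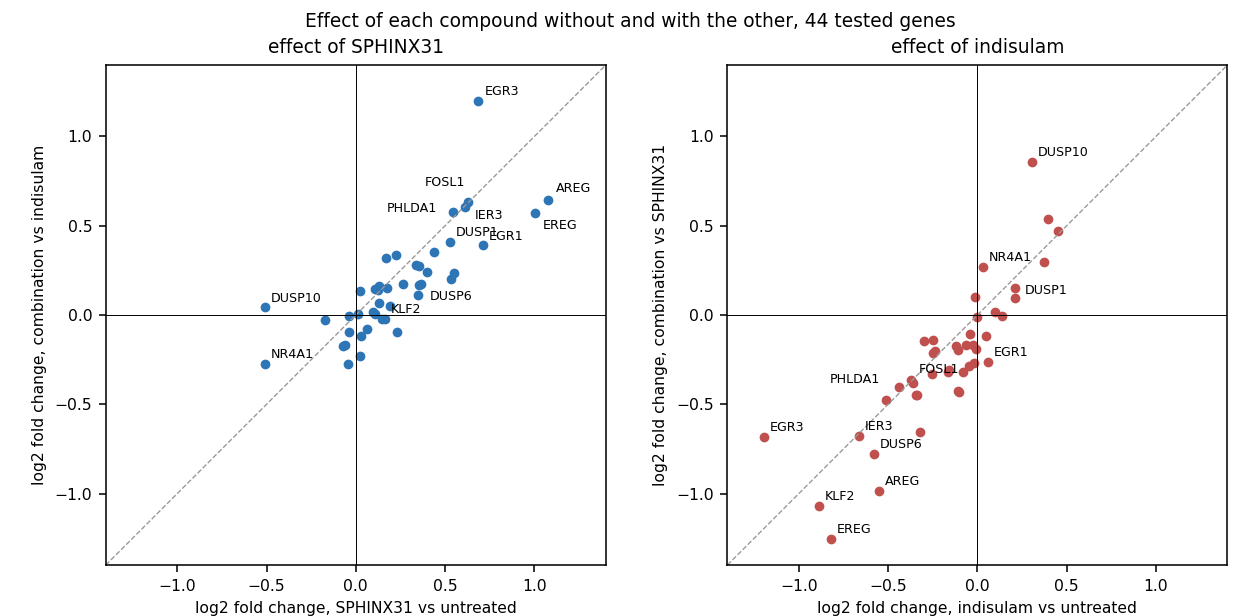
Log2 fold changes of the 44 tested genes for SPHINX31 (left) and indisulam (right), measured without the other compound on the horizontal axis and with it on the vertical axis, with a dashed line at equal values. AREG and EREG lie below the line and DUSP10 lies above it. The vertical distance from the line is the same value in both panels, the interaction described below, so that the panels do not show it independently.

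The effect of indisulam was likewise measured in the presence of SPHINX31. Against SPHINX31 alone, the combination had 26 genes of the list lower and 4 higher, while 49.9% of all tested genes were called, 26.5% lower and 23.4% higher. Of the 18 genes that fell with indisulam alone, 17 fell again and all 18 had a negative value. Across all tested genes, 3728 of the 4391 that fell with indisulam alone fell again and 4340 had a negative value. The share with a negative value on the list was thus near that of all tested genes. The largest decreases among genes above 1 CPM were those of EREG (-1.25, adjusted p = 4.49e-08, SE 0.079), KLF2 (-1.07, adjusted p = 3.81e-06, SE 0.11), AREG (-0.98, adjusted p = 4.28e-07, SE 0.080) and DUSP6 (-0.78, adjusted p = 1.34e-06, SE 0.072). IER2 was the gene of the 18 that did not pass the test (-0.14, adjusted p = 0.0884, SE 0.067). The genes higher were DUSP10 (0.86), NR4A2 (0.54), FOSL2 (0.30) and NR4A1 (0.27). Without combination replicate 1 the number called fell from 30 to 19.

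Whether the effect of one compound on a gene differed in the presence of the other was tested with the interaction term. None of the 44 genes and none of the 18661 passed edgeR's quasi-likelihood test, with 8 of 44 and 1584 of 18661 genes at an unadjusted p under 0.05. DESeq2 called 31 genes, none of them on the list. AREG and EREG had the same interaction value of -0.43 (adjusted p = 0.348), with 95% intervals of -0.67 to -0.19 and -0.67 to -0.19, which corresponds to a smaller increase with SPHINX31 when indisulam was present. When every gene with at least 1 count was kept, these 2 genes were called. DUSP10 had the largest interaction value with 0.55 (adjusted p = 0.422, SE 0.16). KLF6 had the lowest adjusted p of the list (0.268), with an interaction value of -0.32 and a 95% interval of -0.47 to -0.17. For FOSL1, IER3 and PHLDA1 the interaction was 0.01, -0.01 and 0.03, with 95% intervals of -0.18 to 0.19, -0.18 to 0.16 and -0.13 to 0.20, so that the compounds' log2 changes added up within these limits.

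Gene structure was a second property that the list had not been chosen on. The 45 genes were short in exon number, with a median of 4 exons in the representative transcript beside 9 over 14010 tested protein-coding genes, and 14 of 45 (31.1%) had at most 2 exons against 7.19%. JUN, JUNB, JUND and IER5 have a single exon and thus no intron. Of the 13 tested genes with at most 2 exons, 8 fell and none rose with indisulam, with a median log2 fold change of -0.30, while among all 1008 tested protein-coding genes of this class 13.1% fell and 20.7% rose. Of the 31 genes with more exons, 10 fell and 4 rose with indisulam, against 25.8% and 22.6% of all tested protein-coding genes in that class, so that the share that fell was near the background. With SPHINX31, 6 of the 13 and 10 of the 31 rose, against 7.14% and 5.78% of all protein-coding genes in these classes. Decreases with indisulam thus included genes with few introns or none, such as JUNB, IER2, IER3 and ZFP36. Of these, JUNB and ZFP36 did not keep their call in every setting. Whether exon number bears on the decreases was not tested.

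The 3′ untranslated regions were searched for TATTTAT, the core of AU-rich elements, a measure that was added after the other results were known. Of the 44 tested genes, 31 (70.5%) carried at least 1 copy in the representative transcript and 19 (43.2%) at least 2, beside 35.7% and 15.3% of 13976 tested protein-coding genes, at a median region length of 1328 and 1314 bases. SPRED1 carried 5 copies, and IER3, IER5, DUSP4, SPRY4 and EREG each carried 4. Of these, SPRED1 and IER5 were called in no comparison. Among other genes described above, DUSP1 and ZFP36 carried 3, AREG and FOSL1 carried 1, and EGR1, DUSP6 and NR4A1 carried none. With SPHINX31, 6 of 19 genes with 2 or more copies, 6 of 12 with 1 and 4 of 13 with none rose. The corresponding shares over all tested protein-coding genes were 9.71%, 7.48% and 4.47%. Increases were therefore found in each of these classes of the list.

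The wider pathway was described from lists of genes that were not on the list of 45. Among 36 genes of the ERK cascade from receptor to kinase substrates, 2 rose and 1 fell with SPHINX31, of which ERBB2, encoding a partner of EGFR, fell by 0.29 and MKNK2, encoding a kinase downstream of ERK, rose by 0.26. The 3 genes were 8.33% of the list, near the 8.61% of all tested genes. With indisulam, 6 of the 36 rose (16.7%) and 14 fell (38.9%), against 20.1% and 23.5% of all tested genes. The median of the 36 was -0.09, beside -0.004 over all tested genes. The largest changes among genes with a mean above 1 CPM were those of RPS6KA5 (-0.72, adjusted p = 3.12e-04, SE 0.12) and RPS6KA4 (-0.61, adjusted p = 3.18e-05, SE 0.078), which encode the MSK kinases that phosphorylate CREB and histone H3. RPS6KA2, which encodes another ERK-activated kinase and is named after its values were seen, had a mean of 0.791 CPM and fell by 2.53 with indisulam, from 1.02 and 1.22 CPM to 0.120 and 0.275 CPM, and by 1.67 with the combination. RPS6KA4 stood at 44.9 and 41.0 CPM in untreated cells and at 25.7 and 30.6 CPM with indisulam. With the combination, 2 rose (5.56%) and 15 fell (41.7%), against 23.8% and 26.3% of all tested genes, led above 1 CPM by RPS6KA4 (-0.71) and ERBB3 (-0.56).

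Of 28 other early response genes tested, 7 were higher (25.0%) and 1 was lower (3.57%) with SPHINX31, against 4.94% and 3.67% of all tested genes. Among them ATF3, a stress-induced transcription factor, rose by 0.84 (adjusted p = 1.16e-04, SE 0.091). It was also higher with the combination than with indisulam alone (0.52). With indisulam, 6 of the 28 rose and 5 fell (21.4% and 17.9%, near the 20.1% and 23.5% of all tested genes), led by NR4A3 (0.57) and IER5L (-0.47). Of 8 further EGFR ligand and ligand-release genes tested, 3 (37.5%) rose with SPHINX31, among them BTC, encoding betacellulin (0.45, adjusted p = 0.00488, SE 0.083), and ADAM17, the protease that sheds amphiregulin (0.40, adjusted p = 0.00104, SE 0.058), and 4 (50%) fell with indisulam, led by BTC (-0.31) and RHBDF2 (-0.29). Among 18 JNK and p38 kinase genes, 1 rose with SPHINX31 (MAP2K6, 0.25), and 3 rose and 3 fell with indisulam, led by MAPK11 (-0.51) and MAP3K20 (0.42). The shares were 5.56% with SPHINX31 and 16.7% in each direction with indisulam, all below those of all tested genes (8.61%, 20.1% and 23.5%). Among 18 genes of AU-rich mRNA decay, 1 fell with SPHINX31 (DCP2, the decapping enzyme, -0.27), and 5 rose and 4 fell with indisulam, led by CNOT9 (-0.58) and CNOT8 (0.33). Here 5.56% were called with SPHINX31, and the 27.8% higher and 22.2% lower with indisulam were near the same background. EGR4 and EPGN did not pass the filter on low counts.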

How the data were processed

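RNA from A549 cells was sequenced by the authors in 8 libraries (4 groups of 2 technical replicates; polyadenylated RNA, stranded libraries, 150 bp read from both ends). Raw counts per Ensembl gene were deposited by the authors; the submitters' processing notes name HISAT2 2.2.1, HTSeq and GRCh38, and the strand setting and annotation release of the counts are not given in the sources used here. Rows of unassigned reads stayed out of library sizes and tests (14.0% to 17.0% of the recorded reads).

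Names, exons and lengths came from GENCODE release 44, which covered 99.7% of the tested genes, and promoters from RefSeq (GRCh38.p14). Counts were tested in R 4.3.3 with edgeR 4.0.16 (filterByExpr, TMM, glmQLFit and glmQLFTest, all 8 libraries in 1 model of group means with 4 residual degrees of freedom); all adjusted p-values are Benjamini-Hochberg over all 18661 genes, with a threshold of 0.05. The SE is the absolute log2 fold change divided by the square root of the F statistic, and CPM and TPM are not corrected further. Replicates differed by more than sampling noise (chi-square per degree of freedom of 6.59 to 10.7), so none is a copy of another. Values of every library are given for genes with an adjusted p under 0.05, a log2 fold change of 0.58 or more in size in a comparison with untreated cells or of the combination with indisulam, and a mean of at least 1 CPM; from the wider lists at most 2 genes per comparison are named, and 1 of the other early response genes that this rule names is not reported here. PHLDA1, NR4A1 and DUSP10 were given in full after their values were seen. The genes and lists were chosen with earlier results of these data known. The procedure was tested on simulated data. Alternatives were RLE size factors, total counts alone, DESeq2 1.42.0, other filters, only the groups compared, GC correction over 50 bins, a replicate block and leaving out each library.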

Additional observations from a re-analysis of the deposited data

How the results depend on the processing

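Over 17 other settings, the calls that held in all of them were 14 of 22 for indisulam, 13 of 18 for SPHINX31, 12 of 23 for the combination against untreated cells, 7 of 12 for the combination against indisulam and 19 of 30 for the combination against SPHINX31, and no called value changed sign. Leaving out 1 library gave 7 to 12 genes called for the combination against indisulam and 19 to 30 for the combination against SPHINX31, a lone library being assumed to vary like the other groups; for the other comparisons with a call it gave 16 to 22 with indisulam, 13 to 19 with SPHINX31 and 16 to 23 with the combination. With a filter of only 1 count or more per gene, the interaction was called for 2 genes, AREG and EREG, in place of 0; the cause was not tested. The remaining settings gave 17 (DESeq2) to 24 (GC correction) genes with indisulam, 17 to 20 with SPHINX31, 19 to 24 with the combination, 12 to 15 for the combination against indisulam and 23 (DESeq2) to 31 for the combination against SPHINX31. Over all genes, GC correction raised the calls with SPHINX31 from 1606 to 2783 and those of the combination against indisulam from 1399 to 2306, whereas leaving out 1 library gave 482 to 1810 and 440 to 1612. For the 8 genes described in full, 12 of 561 values lost the call, for EGR1, DUSP1, DUSP6 and EREG, and the others kept their direction and their side of the threshold.

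The replicate numbers of the labels were shared between groups without a stated pairing, and deviations of same-numbered libraries correlated between -0.58 and 0.46 over the pairs of groups. With a replicate block, 19 genes were called with indisulam, 17 with SPHINX31, 21 with the combination, 12 for the combination against indisulam, 28 for the combination against SPHINX31 and 0 for the interaction, and no block with GC correction gave fewer than 14 in a comparison other than the interaction. The depth of 51727369 or more counts per library leaves EGR2, EGR3, FOSB and DUSP2 as the genes at which counting error limits the comparison.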
